A study of Mus musculus with 12 samples.

Results

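The genes described here are 39 axon guidance genes of 3 signalling systems, chosen by name: the Eph receptors and their ephrin ligands (22 genes), the Robo receptors and their Slit ligands (7 genes), and the netrins with their receptors Dcc, Neo1 and Unc5 (10 genes). All 39 were found in every table and had at least 500 calls in each library, as did 19826 genes in all. What was measured is non-CG methylation, the share of cytosines not followed by guanine that stayed methylated, over the length of each gene in mouse cortex (C57BL/6). Bisulfite turns unmethylated cytosine into a base read as thymine, so each read over a cytosine is a call for or against methylation, and the level of a gene is its methylated calls in percent of its calls. At postnatal day 40 (P40) there were 4 wild-type (WT) libraries and 4 of the genotype miR29 KO. At 4 months there were 2 WT libraries and 2 of the genotype given as Dnmt3a mi5, whose titles read DNMT3AmiR29MUT. The labels do not define mi5, nor which miR-29 genes the knockout lacks or in which cells. They do not say either whether replicates came from separate animals, so the tests weigh differences against the spread between libraries, which may be technical. The labels name no sorting of cells, and in bulk cortex a change within cells and a change in the mix of cells cannot be told apart. The tables hold methylation and no expression, so the tissue label could not be checked against expressed markers.

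Axon guidance genes encode the signals that steer growing axons and later shape synapses and vessels. Ephrins are held on the cell surface, the A class by a lipid anchor and the B class by a transmembrane stretch, and binding to Eph receptor tyrosine kinases on a neighbouring cell signals into both cells, often as repulsion. Slits are large secreted proteins that repel axons bearing Robo receptors, and netrins attract axons through Dcc and repel them through Unc5. In neurons non-CG methylation is laid down after birth mainly by the DNA methyltransferase Dnmt3a and builds up while synapses form. The miR-29 family is known to target the mRNAs of DNA methyltransferases, Dnmt3a among them.

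The miR-29 family, which the knockout label names, has mature arms that share a seed, the bases through which a microRNA pairs with its targets. They are shown because labels of both mutants refer to this family; capitals mark bases 2 to 8, from RefSeq (GRCm38.p6).
mmu-miR-29a-3p: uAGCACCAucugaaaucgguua
mmu-miR-29b-3p: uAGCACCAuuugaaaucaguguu
mmu-miR-29c-3p: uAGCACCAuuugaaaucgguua
The seed is the same in all 3 arms, and the arms of miR-29a and miR-29c share 21 of 22 positions.

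Promoter windows, the 250 bases before the start of the gene, were found in RefSeq for 34 of the 39 genes; Efnb3, Slit1, Dcc, Unc5d and Ntn1 had no entry. Capitals mark CG, whose cytosines a non-CG level leaves out. The windows of Ephb2 and Efna5 are shown because these genes passed the threshold in opposite directions in the miR29 KO after each library was centred on its median gene. So did 4.59% of all genes, and with limma on centred log2 levels neither gene passed. The window of Robo4 is shown because its log2 odds ratio was the largest of the 39 in mi5. These windows lie at chr4:136836013-136836262 (minus strand), chr17:62881318-62881567 (minus strand) and chr9:37401722-37401971 (plus strand) of GRCm38.p6.
Ephb2: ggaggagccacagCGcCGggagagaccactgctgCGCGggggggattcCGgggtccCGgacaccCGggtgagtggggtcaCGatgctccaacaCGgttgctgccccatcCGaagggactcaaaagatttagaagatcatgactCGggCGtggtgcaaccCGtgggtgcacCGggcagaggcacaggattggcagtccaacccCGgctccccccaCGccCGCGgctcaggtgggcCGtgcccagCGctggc
Efna5: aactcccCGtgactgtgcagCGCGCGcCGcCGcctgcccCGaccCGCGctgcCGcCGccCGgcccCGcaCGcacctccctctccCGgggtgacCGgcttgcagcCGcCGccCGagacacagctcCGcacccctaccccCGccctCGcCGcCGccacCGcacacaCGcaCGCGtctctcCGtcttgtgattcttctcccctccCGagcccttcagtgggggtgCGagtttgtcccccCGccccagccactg
Robo4: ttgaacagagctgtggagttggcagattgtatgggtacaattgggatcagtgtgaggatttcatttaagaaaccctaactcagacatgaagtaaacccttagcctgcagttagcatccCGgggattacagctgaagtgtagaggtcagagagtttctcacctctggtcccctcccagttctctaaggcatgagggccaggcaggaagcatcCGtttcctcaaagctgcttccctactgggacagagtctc
The Efna5 window held 32 CG, and 4.58% of 32851 windows of this length in RefSeq held as many or more. The Ephb2 window held 20 (17.9% held as many or more) and the Robo4 window 2 (81.2%). Over the 39 windows of guidance genes, some genes having several, the median was 18, against 6 over all windows. The tables hold sums over whole genes, so the windows have no methylation values of their own here.

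Calls over all genes ranged from 605997533 to 732985426 per library at P40 and from 399563492 to 474003465 at 4 months. The mean gene level was 1.28% to 1.54% in the P40 WT libraries and 1.72% to 2.46% in the miR29 KO, and the lowest KO value was that of replicate 4. At 4 months it was 1.31% and 1.32% in WT and 2.31% and 2.35% in mi5. At P40 the 4 miR-29 genes together had 6 to 69 calls in KO libraries, where WT had 121 to 244. At 4 months they had 106 to 129 calls in mi5, where WT had 151 to 200. Other microRNA genes (1115) had medians of 44 to 55 calls in P40 WT libraries and 49 to 53 in KO ones, and at 4 months of 27 to 28 in WT and 20 to 21 in mi5, so that these too were fewer in mi5. In 1 library of each group (WT replicate 2 and KO replicate 3 at P40, WT replicate 2 and mi5 replicate 1 at 4 months) 3 genes of the Y chromosome together took 1.01 to 2.03 of every 1000000 calls, against 40.5 to 47.7 in the other libraries.

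In WT cortex the guidance genes were more methylated than most genes. Over the 6 WT libraries 35 of 39 lay above the median gene (1.29%), their own median was 1.86%, and 6 were among the highest 10% of genes. Levels rose with calls over all genes: the median WT level was 0.911% in the 10% of genes with the fewest calls. It was 1.76% in the 10% with the most calls, which held 19 of the 39. Ntn1 and Ntn4 stood highest: Ntn1, the classic floor plate attractant, averaged 2.81% over the WT libraries, and Ntn4, a netrin of basement membranes, 2.69%. The netrin-G genes Ntng2 (2.11%) and Ntng1 (1.91%) lay lower. By system, the Slit-Robo median in WT was 2.04% at P40 and 1.92% at 4 months. That of the netrin system was 2.01% and 1.82%, and that of the Eph-ephrin system 1.59% and 1.51%. The median of the 4 netrins was 2.45% ± 0.21 (SD, n = 4) at P40, and that of the 3 ephrin-B ligands was 1.15% ± 0.093.

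The highest WT levels among Eph receptors and ephrins were those of Epha8 (2.49%), Ephb1 (2.46%) and Efna4 (2.18%), and the lowest those of Efna3 (0.471%), Ephb6 (0.605%) and Efnb3 (0.901%). In the Slit and Robo genes they were Slit1 (2.44%), Robo1 (2.1%) and Slit3 (2.03%) against Robo2 (1.65%), Robo3 (1.75%) and Robo4 (1.93%). In the netrin system Unc5b (2.39%) followed Ntn1 and Ntn4, and Unc5a (1.42%), Neo1 (1.48%) and Unc5c (1.65%) were lowest. Efna3, Ephb6 and Efnb3 kept ranks 39, 38 and 37 of 39 in each of the 4 groups. Ntn1 was highest in every group but WT at P40, where Ntn4 (2.84% ± 0.27) and Ntn1 (2.83% ± 0.26; SD, n = 4) differed by less than their spread. The order was much alike at both ages, with a Spearman correlation of 0.92 between the WT groups over the 39 genes, which share their sequence and so their base composition in all libraries.

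**Figure D1:**
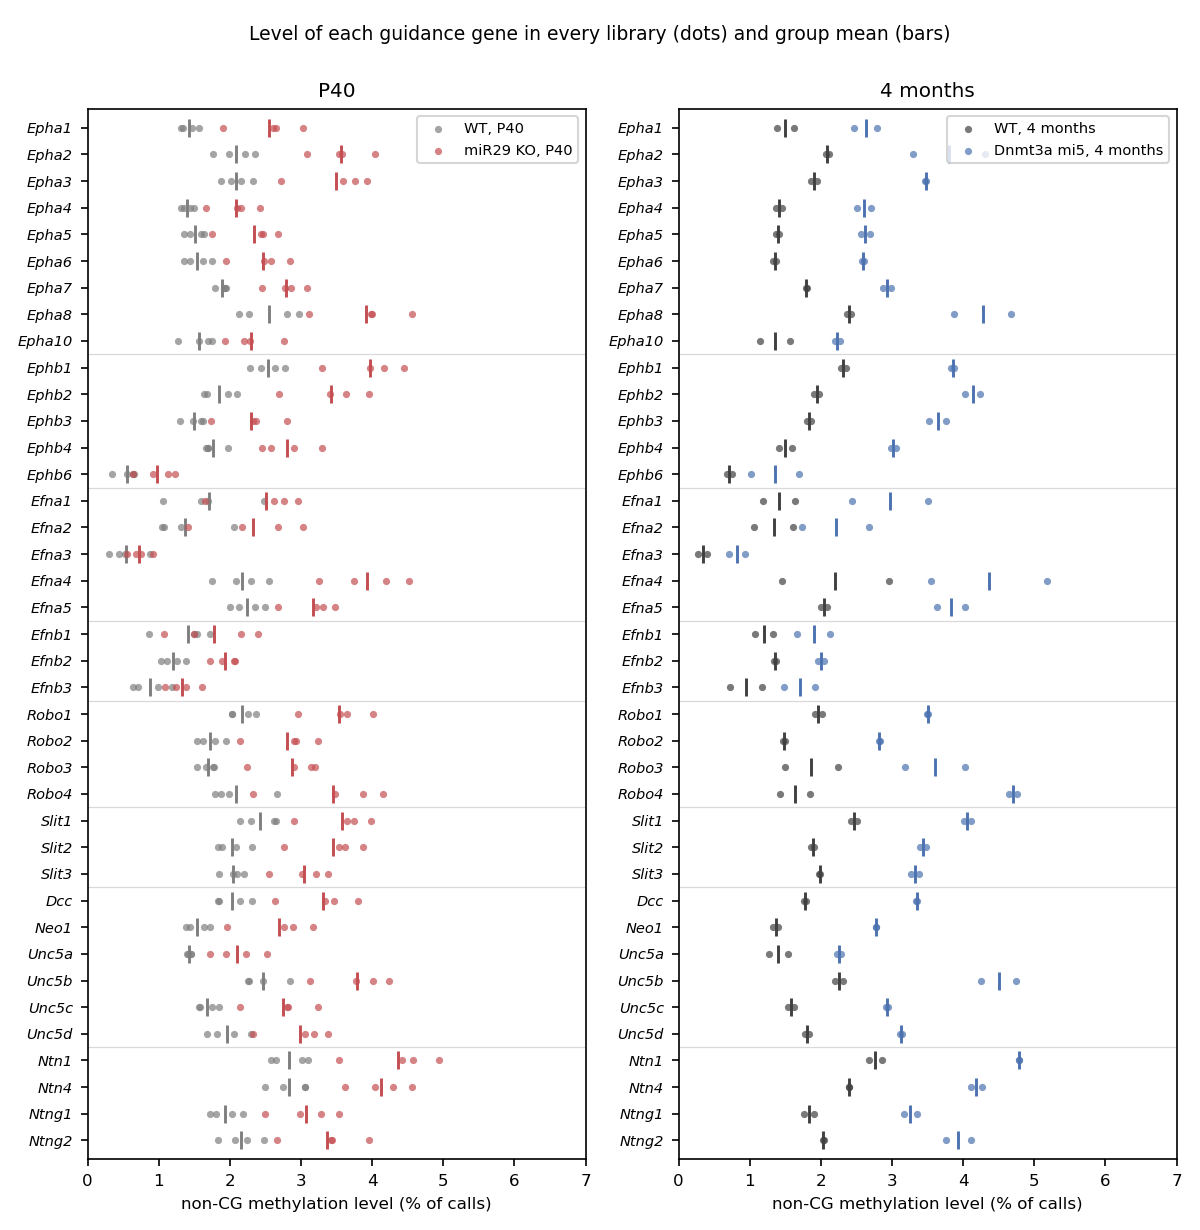
Non-CG methylation level in percent of calls (x axis) of each guidance gene (y axis, grouped by role with grey lines between groups), at P40 (left) and 4 months (right); dots are libraries and upright ticks are group means. At 4 months both mi5 libraries lie above both WT libraries for every gene, and at P40 the 4 KO libraries lie above the 4 WT libraries for 32 of 39 genes.

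Nearly all guidance genes rose in both mutants, as did most genes of the genome. In the miR29 KO 37 of 39 passed the threshold (quasi-binomial model moderated with limma, Benjamini-Hochberg adjusted p under 0.05 over all 19826 genes), all upward, against 76.5% of all genes rising. Their median log2 odds ratio was 0.68, and that of all genes was 0.65. The odds ratio compares the odds of a methylated call, so at these low levels a log2 odds ratio of 1 is close to a doubling of the level. In mi5 35 of 39 rose, against 58.8% of all genes, with a median log2 odds ratio of 0.89 against 0.83. The 4 KO libraries lay above the 4 WT libraries without overlap for 32 guidance genes (57.1% of all genes), and both mi5 libraries lay above both WT libraries for 39 (86.2% of all genes).

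All 24 receptors rose in both mutants, and of the 15 ligands 13 rose in the KO and 11 in mi5. Over all genes 76.5% rose in the KO and 58.8% in mi5, and the share passing was larger in genes with more calls. The receptors had a median of 91453 calls per library and the ligands one of 30751. Efna3 and Efnb1 passed in neither mutant, and Efna2 and Efnb3 passed in the KO but not in mi5. Without WT replicate 1 at 4 months the mi5 calls came down to 24 of 39 guidance genes and 4673 of all genes. Over all genes the mi5 calls also came down without WT replicate 2 or mi5 replicate 1. Each of these fits leaves 1 library in a 4-month group, so its spread is taken from the other groups. The libraries moved together within a group: KO replicate 4 was the lowest KO library for 37 of 39 genes, KO replicate 1 the highest for 37, and WT replicate 2 the highest P40 WT library for 28.

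**Figure D2:**
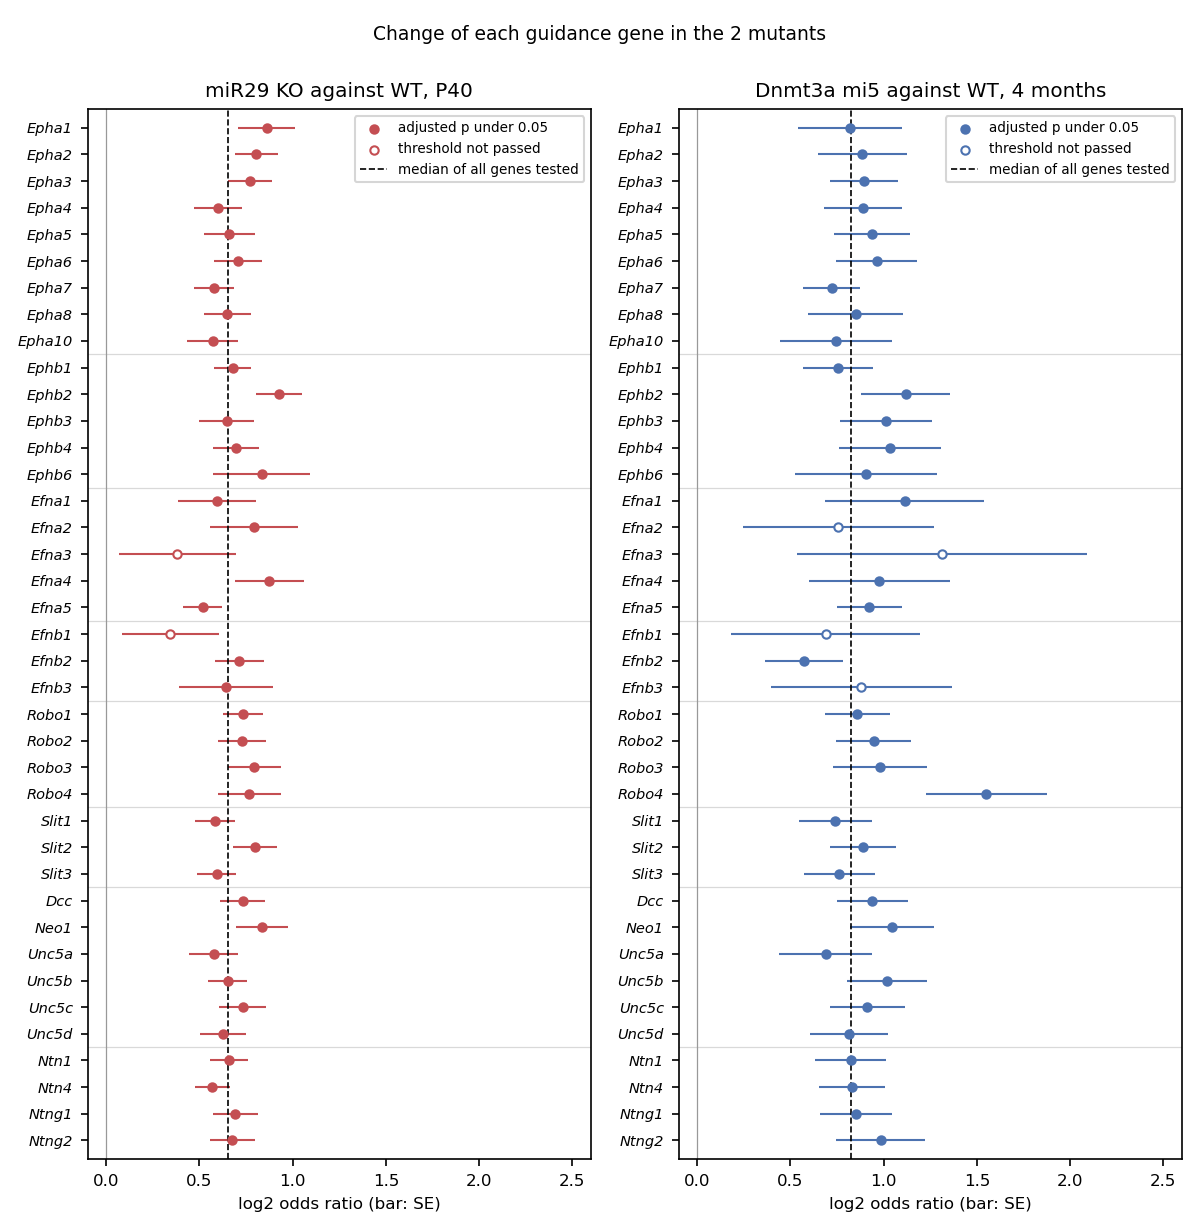
Log2 odds ratio (x axis) of each guidance gene (y axis) in the miR29 KO (left) and mi5 (right), with its SE as a bar; filled points passed an adjusted p of 0.05, open points did not, and the dashed line is the median of all 19826 genes. All points lie above 0; the open ones are Efna3 and Efnb1 in both mutants, and Efna2 and Efnb3 in mi5.

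The 9 EphA receptors all rose, from 1.6% ± 0.17 to 2.56% ± 0.45 at the median in the KO (SD, n = 4 each) and from 1.54% ± 0.12 to 2.68% ± 0.14 in mi5 (SD, n = 2 each). Epha1, which overlaps the cytoskeletal gene Zyx and so may share calls with it, had the largest log2 odds ratio of this class in the KO. Its level was 1.31%, 1.57%, 1.35% and 1.47% in the P40 WT libraries and 3.03%, 2.65%, 2.61% and 1.9% in the KO libraries. The groups did not overlap (log2 odds ratio 0.86, SE 0.15, adjusted p = 9.06e-05). Epha2, a receptor also known from epithelia, followed with log2 odds ratio 0.80, SE 0.12, and rose from 2.08% ± 0.26 to 3.56% ± 0.39. Epha8, the EphA gene of highest level, rose from 2.54% ± 0.41 to 3.91% ± 0.6 in the KO and from 2.39% ± 0.041 to 4.27% ± 0.56 in mi5.

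Epha10, a receptor without kinase activity, had the smallest KO value of the EphA class (from 1.57% ± 0.21 to 2.29% ± 0.35, log2 odds ratio 0.57, SE 0.14). Epha7, a receptor of topographic mapping, had the smallest in mi5, from 1.8% ± 0.017 to 2.93% ± 0.075 (log2 odds ratio 0.72, SE 0.15). Epha4, which binds both ephrin classes and mediates repulsion of corticospinal axons, rose from 1.4% ± 0.081 to 2.09% ± 0.32 in the KO and from 1.42% ± 0.055 to 2.6% ± 0.14 in mi5. Epha3, Epha5 and Epha6, large genes with many calls, rose to 3.5% ± 0.54, 2.34% ± 0.4 and 2.46% ± 0.37 in the KO and to 3.48% ± 0.011, 2.63% ± 0.093 and 2.59% ± 0.019 in mi5. The mi5 calls of 4 EphA genes depended on single 4-month libraries: those of Epha1 (adjusted p of 0.0593 to 0.122) and Epha8 (adjusted p of 0.0524 to 0.0707) were lost without either WT library or mi5 replicate 1, that of Epha2 without mi5 replicate 1 (adjusted p = 0.0819), and that of Epha10 without any of the 4 or without WT replicate 3 at P40 (adjusted p of 0.0506 to 0.249).

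The 5 EphB receptors rose at the median from 1.75% ± 0.15 to 2.8% ± 0.38 in the KO and from 1.83% ± 0.044 to 3.64% ± 0.17 in mi5. Ephb2, a receptor of dendritic spine formation that interacts with NMDA receptors, had the largest KO log2 odds ratio of the 39 genes. Its level was 1.64%, 2.1%, 1.97% and 1.68% in the P40 WT libraries and 3.96%, 3.63%, 3.41% and 2.69% in the KO libraries. It was 1.98% and 1.91% in WT at 4 months and 4.24% and 4.03% in mi5. Neither pair of groups overlapped, and the log2 odds ratio was 0.93 (SE 0.12, adjusted p = 5.71e-05) in the KO and 1.12 (SE 0.24, adjusted p = 0.003) in mi5.

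Ephb4, which with ephrin-B2 patterns arteries and veins, rose from 1.5% ± 0.13 to 3.02% ± 0.045 in mi5 (log2 odds ratio 1.04, SE 0.27), a call lost without WT replicate 1 (adjusted p = 0.0606). Ephb3, which acts with Ephb2 in forebrain commissures, rose from 1.5% ± 0.15 to 2.3% ± 0.44 in the KO and from 1.83% ± 0.044 to 3.64% ± 0.17 in mi5. Ephb1 had the highest WT level of the class and rose from 2.54% ± 0.22 to 3.97% ± 0.49 in the KO and from 2.32% ± 0.042 to 3.85% ± 0.031 in mi5. Ephb6, a receptor without kinase activity, had the lowest level of the receptors. It measured 0.637%, 0.561%, 0.651% and 0.35% in the P40 WT libraries and 1.22%, 1.13%, 0.918% and 0.637% in the KO libraries, where KO replicate 4 lay within the WT range (log2 odds ratio 0.83, SE 0.26, adjusted p = 0.00705). In mi5 its adjusted p of 0.0481 was close to the threshold and was not past it in 8 of the 12 fits that leave out 1 library.

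Among the 5 ephrin-A ligands Efna5, which sets up topographic maps, had a smaller KO log2 odds ratio than all guidance genes but Efnb1 and Efna3. Its level was 2.13%, 2.5%, 2.36% and 2.0% in the P40 WT libraries and 3.48%, 3.31%, 3.21% and 2.68% in the KO libraries, with no overlap (log2 odds ratio 0.52, SE 0.11, adjusted p = 0.000297). In mi5 it rose, with WT at 2.09% and 2.01% and mi5 at 4.02% and 3.63% (log2 odds ratio 0.92, SE 0.18). Efna4, a small gene covered by 966 to 3290 calls, had the largest KO log2 odds ratio after Ephb2, at 0.88 (SE 0.19), and levels of 2.17% ± 0.34 in WT and 3.92% ± 0.55 in the KO. In mi5 the means lay far apart, 2.21% ± 1.1 and 4.36% ± 1.1, but each pair was wide. The mi5 call of Efna4 was lost without WT replicate 1 or mi5 replicate 1 (adjusted p of 0.227 to 0.253).

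Efna3 was the gene of lowest level. It measured 0.874%, 0.444%, 0.526% and 0.303% in the P40 WT libraries and 0.917%, 0.688%, 0.754% and 0.561% in the KO libraries. The groups overlapped through WT replicate 1 (log2 odds ratio 0.38, 95% interval -0.27 to 1.04, adjusted p = 0.271), and without that library the KO value passed, at an adjusted p of 0.0467. At 4 months the levels were 0.279% and 0.401% in WT and 0.709% and 0.928% in mi5, with a log2 odds ratio of 1.31 (SE 0.78, adjusted p = 0.147) that rested on 6 to 16 methylated calls per library.

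Efna2, an ephrin of topographic maps, measured 1.06% and 1.61% in WT and 2.68% and 1.74% in mi5 (log2 odds ratio 0.76, SE 0.51, adjusted p = 0.2), and in the KO rose from 1.37% ± 0.47 to 2.32% ± 0.71. Efna1, known from vessels, rose from 1.71% ± 0.58 to 2.5% ± 0.58 in the KO, a call lost without WT replicate 4 (adjusted p = 0.06). In mi5 it rose from 1.41% ± 0.32 to 2.97% ± 0.75 (log2 odds ratio 1.11, SE 0.43), a call lost without either WT library or without mi5 replicate 1 (adjusted p of 0.0757 to 0.231).

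Of the 3 ephrin-B ligands, Efnb2, which also signals backwards into the cell that carries it, had the smallest mi5 log2 odds ratio of the 39 genes, 0.57 (SE 0.21). WT measured 1.34% and 1.37% and mi5 2.05% and 1.96%, without overlap, but the call was lost without any 1 of these 4 libraries (adjusted p of 0.0782 to 0.119). In the KO it rose from 1.2% ± 0.15 to 1.93% ± 0.17. Efnb3, a midline barrier for corticospinal axons, rose in the KO from 0.879% ± 0.25 to 1.33% ± 0.22 (adjusted p = 0.0258), where KO replicate 4 at 1.08% lay below WT replicate 2 at 1.18%. That call was lost without WT replicate 1, WT replicate 4 or KO replicate 1 (adjusted p of 0.0692 to 0.107). At 4 months Efnb3 measured 1.17% and 0.719% in WT and 1.48% and 1.92% in mi5 (log2 odds ratio 0.88, SE 0.49, adjusted p = 0.121). The X-linked ligand Efnb1 is described with its chromosome after the relative levels.

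The 4 Robo receptors rose at the median from 1.89% ± 0.18 to 3.12% ± 0.58 in the KO and from 1.71% ± 0.32 to 3.55% ± 0.3 in mi5. Robo4, the Robo of vessel endothelium, had the largest mi5 log2 odds ratio of the 39 genes. Its level was 1.42% and 1.85% in the WT libraries at 4 months and 4.64% and 4.76% in mi5, so that both mi5 libraries lay far above WT (log2 odds ratio 1.55, SE 0.33, adjusted p = 0.003). At P40 the WT libraries measured 1.99%, 2.67%, 1.88% and 1.78% and the KO libraries 4.15%, 3.87%, 3.47% and 2.33%. The P40 groups overlapped because KO replicate 4 lay below WT replicate 2 (log2 odds ratio 0.77, SE 0.17, adjusted p = 0.000514).

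Robo1, the most methylated Robo in WT, rose from 2.17% ± 0.17 to 3.54% ± 0.43 in the KO and from 1.96% ± 0.075 to 3.5% ± 0.0043 in mi5. Robo2, which acts with Robo1 in forebrain tracts, rose from 1.72% ± 0.18 to 2.8% ± 0.46 in the KO and from 1.49% ± 0.016 to 2.82% ± 0.018 in mi5. Robo3, which lets commissural axons cross the midline, rose from 1.69% ± 0.11 to 2.87% ± 0.44 in the KO. In mi5 Robo3 rose from 1.87% ± 0.52 to 3.6% ± 0.6, a call lost without WT replicate 1 (adjusted p = 0.087).

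The 3 Slits rose at the median from 2.08% ± 0.19 to 3.45% ± 0.48 in the KO and from 1.98% ± 0.0064 to 3.43% ± 0.064 in mi5. Slit2, the Slit with the largest KO log2 odds ratio, measured 1.83%, 2.31%, 2.09% and 1.89% in the P40 WT libraries and 3.88%, 3.61%, 3.54% and 2.76% in the KO libraries, without overlap (log2 odds ratio 0.80, SE 0.12, adjusted p = 5.71e-05). Slit2 and Slit3 carry the microRNA genes Mir218-1 and Mir218-2 within them. Slit1, a Slit of the nervous system, had one of the 5 smallest mi5 log2 odds ratios, 0.74 (SE 0.20), and levels of 2.47% ± 0.06 and 4.06% ± 0.073 at 4 months; that call was lost without WT replicate 1 (adjusted p = 0.0541). Its KO log2 odds ratio was 0.58 (SE 0.11), beside 0.59 (SE 0.11) for Slit3.

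The 6 netrin receptors rose at the median from 1.82% ± 0.2 to 2.87% ± 0.46 in the KO and from 1.68% ± 0.043 to 3.03% ± 0.019 in mi5. Neo1 (neogenin), which binds netrins and the repulsive guidance molecules, had one of the 5 largest log2 odds ratios in both mutants. It measured 1.39%, 1.63%, 1.71% and 1.44% in the P40 WT libraries and 3.17%, 2.88%, 2.75% and 1.95% in the KO libraries, without overlap (log2 odds ratio 0.84, SE 0.14). In mi5 it rose from 1.36% ± 0.053 to 2.78% ± 0.0059 (log2 odds ratio 1.04, SE 0.23). Dcc, the attractive netrin receptor and the gene with the most calls of the 39, rose from 2.04% ± 0.23 to 3.31% ± 0.49 in the KO and from 1.78% ± 0.025 to 3.34% ± 0.017 in mi5.

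Of the repulsive receptors, Unc5b, which also acts in vessels, had the highest level and rose to 3.79% ± 0.48 in the KO and 4.5% ± 0.35 in mi5. Unc5c and Unc5d rose to 2.75% ± 0.46 and 2.98% ± 0.46 in the KO and to 2.93% ± 0.026 and 3.13% ± 0.013 in mi5. Unc5a, which overlaps the hexokinase gene Hk3, had the smallest mi5 value of the netrin receptors, from 1.4% ± 0.2 to 2.25% ± 0.038 (log2 odds ratio 0.69, SE 0.25, adjusted p = 0.0249). That call was lost without any 1 of the 4 libraries of that age (adjusted p of 0.0668 to 0.151).

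The 4 netrins rose at the median from 2.45% ± 0.21 to 3.74% ± 0.46 in the KO and from 2.22% ± 0.0073 to 4.06% ± 0.073 in mi5. Ntn1 measured 2.57%, 3.1%, 3.01% and 2.66% in the P40 WT libraries and 4.95%, 4.57%, 4.42% and 3.53% in the KO libraries, without overlap (log2 odds ratio 0.66, SE 0.10). At 4 months it was 2.68% and 2.85% in WT and 4.78% and 4.78% in mi5. Ntn4, the most methylated gene in WT at P40, had one of the 5 smallest KO log2 odds ratios, 0.57 (SE 0.094, adjusted p = 6.4e-05), and rose from 2.84% ± 0.27 to 4.13% ± 0.41. The lipid-anchored netrin-G genes Ntng1 and Ntng2, whose products bind synaptic ligands of their own and not Dcc, rose to 3.07% ± 0.44 and 3.37% ± 0.53 in the KO and to 3.26% ± 0.13 and 3.93% ± 0.25 in mi5.

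Genes of higher WT level had larger rises in percentage points, and their log2 odds ratios showed no such order. Between the WT level at 4 months and the KO rise in points at P40, which share no library, the Spearman correlation over the 39 genes was 0.78, and between that WT level and the KO log2 odds ratio it was 0.04. For the WT level at P40 and mi5 the values were 0.79 and -0.01. The KO rise ranged from 0.193 points (Efna3) to 1.75 points (Efna4), and the mi5 rise from 0.478 (Efna3) to 3.06 (Robo4). The log2 odds ratios of the mutants, which share no library either, correlated at 0.33 (Spearman) and 0.17 (Pearson) over the 39 genes.

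The guidance genes differed widely in the calls behind their values. Many of the guidance genes are large: 19 of the 39 were among the 10% of genes with the most calls, where 97.8% of all genes passed in the KO and 94.6% in mi5, and all 19 passed in both. Among the 10% with the fewest calls, which hold Efna4, the shares were 40.1% and 18.3%. The 24 receptors had a median of 91453 calls per library and the 8 ephrins one of 4683. In Ephb2 the level of WT replicate 1 at P40 came from 2219 methylated of 135402 calls (95% Wilson interval 1.57% to 1.71%). In Efna3 that of WT replicate 1 at 4 months came from 6 of 2149 (0.128% to 0.608%). These intervals cover counting error only.

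**Figure D3:**
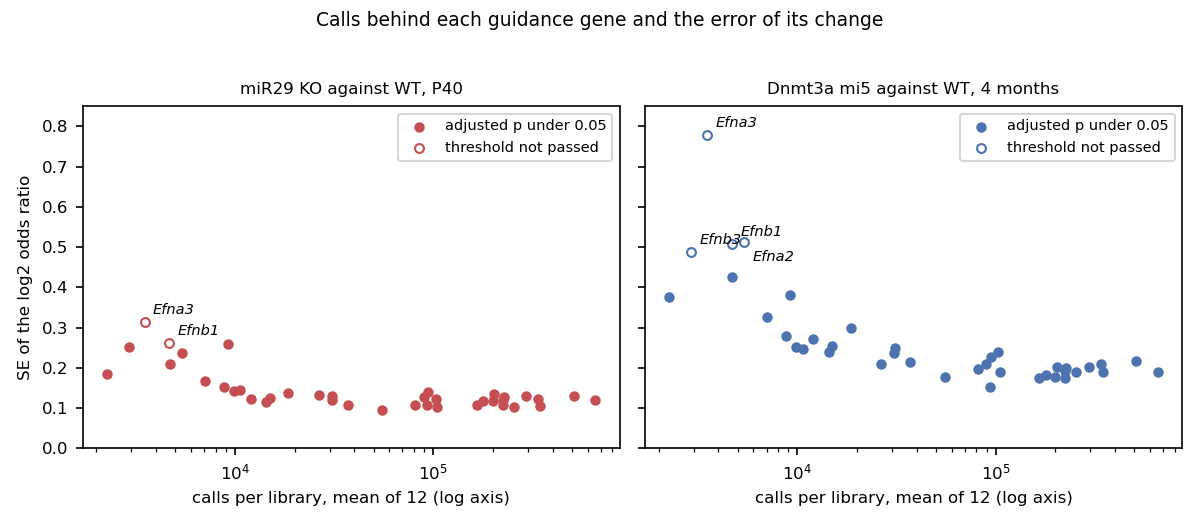
SE of the log2 odds ratio (y axis) against the calls per library of each guidance gene (x axis, log scale, mean of 12 libraries), for the miR29 KO (left) and mi5 (right); open points did not pass an adjusted p of 0.05. The genes that did not pass lie at the left, where calls are few and errors large, up to an SE of 0.78 for Efna3 in mi5. Efna4, with the fewest calls, and Efna1 lie there too and passed in both mutants.

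Because nearly all genes rose, the guidance genes were also compared after each library was centred on its median gene. In the KO 2 of 39 then differed from the common shift past the threshold, as did 4.59% of all genes. Ephb2 lay above it, with a centred log2 odds ratio of 0.24 (SE 0.034, adjusted p = 0.000367). Efna5 lay below it, with -0.17 (SE 0.039, adjusted p = 0.016). Divided by the median gene of its library, Ephb2 stood at 1.35, 1.46, 1.44 and 1.38 in the P40 WT libraries and at 1.66, 1.64, 1.65 and 1.65 in the KO libraries, a gap wider than the range of either group. Efna5 stood at 1.75, 1.74, 1.73 and 1.65 in WT and at 1.46, 1.5, 1.56 and 1.65 in the KO, so replicate 4 of each group all but met. Ephb2, Slit2 and Efna5 were the guidance genes whose relative levels did not overlap at P40, Ephb2 and Slit2 being higher in the KO (3.21% of all genes) and Efna5 lower (7.35%).

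The Ephb2 call held without each library in turn, with adjusted p from 0.000257 to 0.00341. That of Efna5 was lost without WT replicate 1, KO replicate 1 or KO replicate 2 (adjusted p of 0.0598, 0.0794 and 0.055). With limma on centred log2 levels neither passed (adjusted p of 0.097 for Ephb2 and 0.196 for Efna5), and 0 of 19826 genes did, although 3465 had an unadjusted p under 0.05. In mi5 no guidance gene passed after centring by either method, and 0.0353% of all genes did with the quasi-binomial model. There Ephb2 stood at 1.61 and 1.58 in WT and 1.91 and 1.83 in mi5 (centred log2 odds ratio 0.25, adjusted p = 0.204). Robo4 stood at 1.15 and 1.53 in WT and 2.09 and 2.16 in mi5 (0.68, adjusted p = 0.264). Efna5 stood at 1.7 and 1.66 in WT and 1.81 and 1.65 in mi5, and these overlapped. With 2 libraries per group such gaps were common: 10 of the 39 genes lay above WT without overlap and 9 below, as did 16.4% and 27.6% of all genes.

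**Figure D4:**
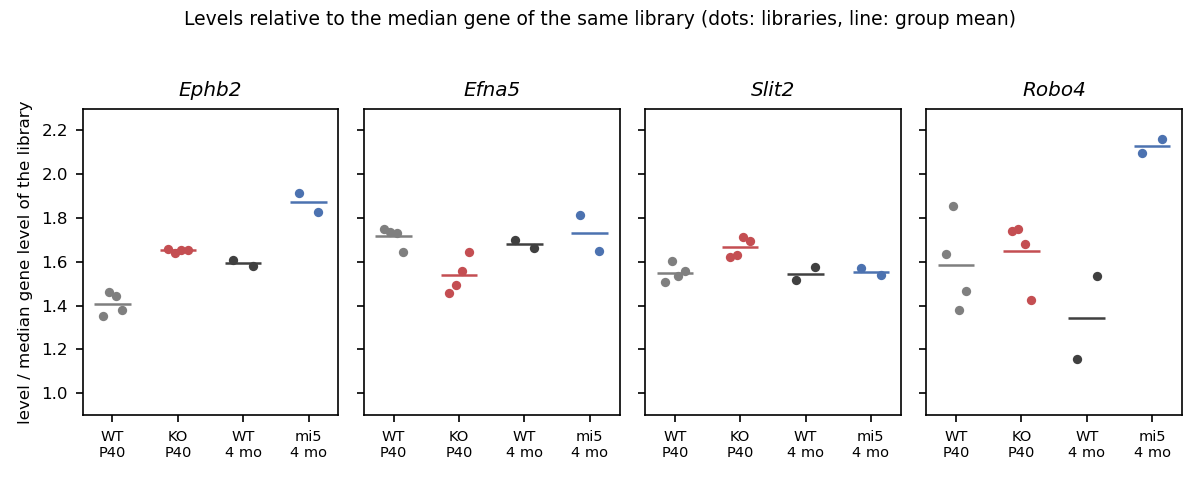
Level divided by the median gene level of the same library (y axis, from 0.9) for Ephb2, Efna5, Slit2 and Robo4 in the 4 groups (x axis); dots are libraries and lines are group means. Ephb2 in the KO sits between 1.64 and 1.66, above all P40 WT libraries, and Robo4 in mi5 at 2.09 and 2.16.

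Efnb1, the only one of the 39 genes on the X chromosome, differed between libraries within every group. It measured 1.5%, 0.868%, 1.54% and 1.72% in the P40 WT libraries and 2.4%, 2.16%, 1.07% and 1.5% in the KO libraries. At 4 months it measured 1.32% and 1.08% in WT and 1.67% and 2.13% in mi5. In each group the lowest library was the one with few calls on Y-linked genes. In those 4 libraries Efnb1 took 7.34 to 13.5 of every 1000000 calls, against 4.62 to 8.03 in the others. The median X-linked gene took 19.1 to 20.1 of every 1000000 calls in those 4 libraries, against 10.2 to 10.8 in the others. There the median X-linked gene had 0.586 to 0.661 times the autosomal median level, against 0.93 to 0.979 times.

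A term for low Y-gene coverage gave Efnb1 a log2 odds ratio of -0.77 (SE 0.18, adjusted p = 0.0258). No other of the 39 genes had such a call, and 1.56% of all genes did, namely 310 genes, all of them among the 736 X-linked genes tested. The Efnb1 value was not past the threshold without WT replicate 2, KO replicate 2 or KO replicate 3 at P40 (adjusted p of 0.18, 0.0757 and 0.724). The change of Efnb1 in the KO was not past the threshold either (log2 odds ratio 0.34, SE 0.26, adjusted p = 0.233). This value moved with the P40 libraries of low Y-gene coverage. Without that of the KO (replicate 3) it passed, with a log2 odds ratio of 0.65 (adjusted p = 0.0177). Without that of WT (replicate 2) the log2 odds ratio was 0.06 (adjusted p = 0.842, same model). In mi5, with all libraries, the values of Efnb1 were log2 odds ratio 0.69, SE 0.51, adjusted p = 0.238.

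**Figure D5:**
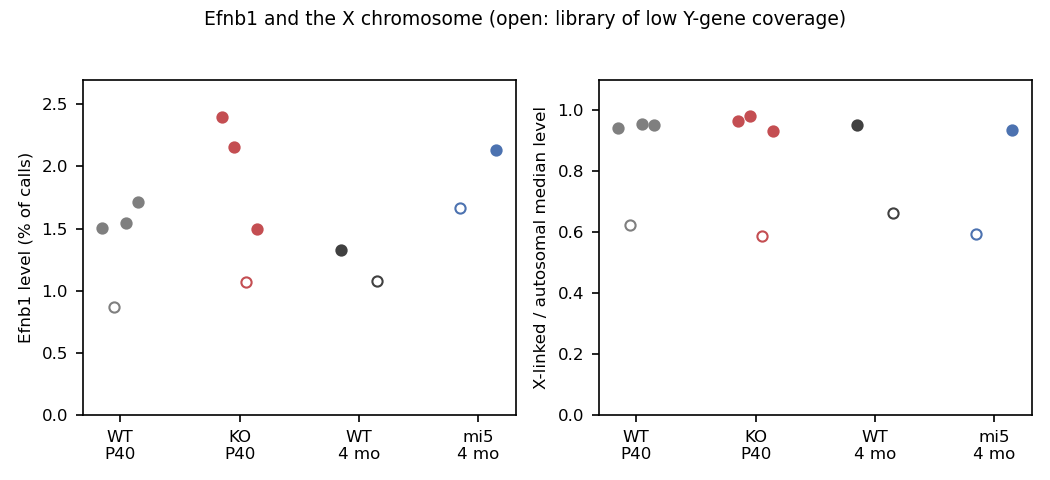
Level of Efnb1 in percent of calls (left) and the median level of X-linked genes over that of autosomal genes (right) by group (x axis); each point is a library, and open points are the libraries of low Y-gene coverage. The open point is the lowest of its group in both panels, at 0.586 to 0.661 in the right panel.

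Whether the mutants changed the guidance genes differently was tested as the difference between the log2 odds ratios, KO minus mi5. No guidance gene and none of the 19826 genes (0%) passed with the quasi-binomial model moderated with limma, and at an unadjusted p under 0.05 there were 1 guidance gene and 289 genes in all. The mi5 value was the larger for 36 of 39 genes. The KO value was the larger for 3 of the 39 and for 4419 of all 19826 genes. The median difference was -0.19, against -0.18 over all genes. The 1 guidance gene was Robo4, with a difference of -0.78 (95% interval -1.55 to -0.02, adjusted p = 0.998). For Ephb2 the interval was -0.75 to 0.37 and for Efna5 -0.84 to 0.02, so 0 was not excluded. Genotype and age differ together between the mutants and cannot be told apart.

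Between the ages, WT at 4 months against WT at P40, no guidance gene passed the threshold, also at an unadjusted p under 0.05 and with limma on log2 levels of libraries that were not centred, and 0.131% of all genes did. The median log2 odds ratio was -0.10 over the guidance genes and -0.08 over all genes. Ephb3 and Ephb6 were higher in both 4-month WT libraries than in all P40 WT libraries, as were 6.03% of all genes. Ephb3 measured 1.86% and 1.8% at 4 months and 1.3%, 1.62%, 1.59% and 1.48% at P40 (log2 odds ratio 0.30, 95% interval -0.15 to 0.75). Ephb4, Robo1, Robo2, Dcc and Ntn4 were lower without overlap, as were 12.1% of all genes, and for Ntn4 the interval was -0.57 to 0.08. With limma on centred libraries Ephb3 passed (adjusted p = 0.0315), as did 1.18% of all genes. It did not pass with the quasi-binomial model on centred libraries. The P40 and 4-month libraries also differed in calls per library. Age cannot be told apart from whatever else differed between these sets of libraries.

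Most of the genes listed as acting with or behind these receptors rose too, like most genes. Of 57 listed partners and effectors 53 rose in the KO and 0 fell, with a median log2 odds ratio of 0.60; over all genes 76.5% rose and the median was 0.65. In mi5 43 rose and 0 fell, with a median of 0.80; over all genes 58.8% rose and the median was 0.83. Fewer of the partners passed in mi5 without WT replicate 1 or WT replicate 2 at 4 months, and fewer of all genes did too. Each of these fits leaves 1 WT library at that age. The largest KO values were those of the Slit-binding heparan sulfate proteoglycan Gpc1 (1.19% to 2.21%, log2 odds ratio 0.92, SE 0.16), the gene of the Robo-binding GTPase-activating protein Srgap2 (1.12% to 1.99%, 0.85, SE 0.14) and the actin regulator Enah (1.42% to 2.45%, 0.81, SE 0.13). In mi5 they were those of the actin regulator Vasp (0.937% to 2.7%, log2 odds ratio 1.56, SE 0.36), the netrin antagonist Draxin (1.76% to 3.85%, 1.16, SE 0.27) and the netrin gene Ntn5 (1.27% to 2.63%, 1.1, SE 0.32).

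The smallest KO values among the partners were those of the netrin gene Ntn3 (0.57% and 0.562%, log2 odds ratio -0.04, SE 0.35), of Lrrc4, a netrin-G ligand (0.805% and 0.827%, 0.04, SE 0.37), and of its relative Lrrc4b (0.572% and 0.621%, 0.10, SE 0.26), none of them past the threshold. The other partner that did not pass was Wasl, at an adjusted p of 0.071. In mi5 the smallest were Ntn3 (log2 odds ratio 0.08, SE 0.70) and Flrt1 (0.48, SE 0.27), not past the threshold, and Sipa1l1 (0.54, SE 0.20, adjusted p = 0.0307).

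Marker genes of cortical cell types were looked at for their methylation. Of 34 listed, 31 had enough calls, and 25 of them rose in the KO and 23 in mi5, beside 76.5% and 58.8% of all genes. In the KO 2 of 6 excitatory neuron markers rose, 4 of 5 of inhibitory neurons, 5 of 5 of astrocytes, 5 of 5 of the oligodendrocyte lineage, 4 of 5 of microglia and 5 of 5 of endothelium and pericytes. In mi5 the counts in the same order were 2 of 6, 3 of 5, 5 of 5, 4 of 5, 4 of 5 and 5 of 5. Whether the mix of cells differed between groups was not tested.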

How the data were processed

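Non-CG calls per gene came from 12 bisulfite libraries of mouse cortex. Per the labels' protocols, DNA was extracted with a DNeasy kit, sheared by sonication (Covaris) and spiked with unmethylated lambda DNA; BSMAP and mm9 are named in the submitters' processing notes. The authors deposited, per RefSeq transcript, the count of methylated calls and a total of calls that was often not whole and was read as an expected count. Between 35.7% and 62.2% of the totals were whole, and their derivation was not given in the sources used here; they were rounded to whole numbers. No correction for incomplete conversion was applied, and no label says whether the authors applied one.

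Of 36672 rows per table, 300 without a gene symbol and 1395 rows of 410 repeated identifiers were left out. Where a gene had several transcripts, the one with most calls was used (23882 genes), and genes with at least 500 calls in every library were tested (19826). Symbols came from a RefSeq table of GRCm38.p6, used for names and for which genes overlap. Methylated against unmethylated calls were fitted by group over all 12 libraries with a quasi-binomial model in R 4.3.3. Its dispersion (median 5.13) was moderated by the squeezeVar function of limma 3.58.1, robustly and along the trend with calls, and p-values were adjusted by Benjamini-Hochberg over all tested genes. Levels, figures and Wilson intervals were made in Python 3.11.15 with pandas 2.3.3, scipy 1.17.1 and matplotlib 3.10.9. The fit was tested on simulated data in which genes varied independently. That test does not cover libraries that move as a whole, as they did here. ± is the SD over libraries.

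The genes and lists were chosen with earlier results of these data known. Genes named were the 3 highest and 3 lowest in WT level per system, the 5 largest and 5 smallest log2 odds ratios per mutant, all not past the threshold, those past it after centring or in the other comparisons, Efnb1, and the 3 largest and 3 smallest of the partner genes; others were named for their role. Alternatives were limma on log2(percent + 0.1) or with 0.5, minimums of 1 and 1000 calls, another transcript, libraries centred on the median gene, a replicate block, ages fitted apart, the 1st percentile of levels subtracted, a low Y-gene coverage term, and each library left out. Added after seeing the data were centred fits that leave out a library, a low Y-gene coverage term with centring, centring on the genes of most calls, and the 8 libraries with Y-gene coverage alone.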

Additional observations from a re-analysis of the deposited data

Results flagged for a closer look

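Ephb4 in the P40 WT group had 1 library far from the others: replicate 2 measured 1.98%, and the other 3 libraries lay between 1.67% and 1.70% (a gap of 0.901 of the range, past Dixon's limit). It was the only such group of 78 examined (39 genes in the 2 P40 groups), where chance gives about 1 in 20. Replicate 2 is also the P40 WT library with few calls on Y-linked genes and the highest P40 WT library for 28 of the 39 genes; the part of either in the Ephb4 value was not tested.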

How the results depend on the processing

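Without centring, the count of guidance genes past the threshold stayed within 1.5 times its value of 37 in the KO and 35 in mi5 under the settings tried, the 8 libraries with Y-gene coverage excepted: there, with 1 library per group at 4 months, 0 passed in mi5. Leaving out 1 library gave 35 to 38 in the KO and 24 to 35 in mi5; a group left with 1 library was assumed to vary like the others. With all libraries and no centring, 76.5% of all genes rose in the KO and 58.8% in mi5. Centring changed the question and the counts. In the KO 2 passed (4.59% of all genes), 0 with limma, and 1 to 4 when a library was left out (3 without WT replicate 2 or 3). With a low Y-gene coverage term 4 passed: Ephb2, Efna5, and Neo1 and Slit2, both above the common shift. Centred on the genes of most calls 4 passed: Ephb2, Efna5, and Slit1 and Slit3, both below it. In mi5 0 passed in each centred fit, those with a library left out included. Between the ages 1 passed with limma on centred libraries (Ephb3) and 1 when centred on the genes of most calls (Dcc, beside 300 of all genes). As a mean over genes in place of the median, the Slit-Robo level in mi5 was 3.63% (median 3.49%), and the netrin level 1.92% in WT at 4 months (1.82%) and 3.51% in mi5 (3.30%). No value reversed its direction past the threshold. With a replicate block 37, 35 and 0 guidance genes passed in the KO, in mi5 and in their difference. At P40 same-numbered libraries deviated with correlations of -0.054 to 0.109, so the numbers were not taken as pairs. At 4 months the value was -0.089. With 2 libraries per group every pairing there gives this size, so it cannot show whether the numbers are pairs. They were not taken as pairs there either. The median calls per library were 4683 over the 8 ephrins and 91453 over the 24 receptors, so values of most ephrins rest on fewer calls. Over all genes, mi5 gave 11649 calls and 1 in the libraries with Y-gene coverage; centred KO calls numbered 910, and 315 to 1148 with a library left out. Between the ages 26 genes passed, 11 with moderation neither robust nor along the trend, 42 without KO replicate 4, 305 with centring and 234 with limma and centring. The cause of these shifts was not tested.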

Other observations

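Epha7, Epha10, Efna1 and Unc5a had a further transcript row with other calls. In the short row of Epha10, with 2231 calls per library against 18566, the KO log2 odds ratio was 0.49 (SE 0.24, limma-moderated adjusted p = 0.0736), and the mi5 value was 0.54 (SE 0.54, adjusted p = 0.384), so it was past the threshold in neither mutant there. In Efna1 the shorter row gave 0.59 in the KO, beside 0.59 in the longer.

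Of the 39 genes 22 overlap another annotated gene and 3 a protein-coding one: Epha1 with Zyx, Epha5 with Gm42163 and Unc5a with Hk3. How calls in the shared stretches were assigned is not given.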
